A study of Mus musculus with 8 samples.

Results

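The comparison described here is that of Tet1 knockout (KO) with wild-type bone cartilage stromal progenitors (BCSP), in 4 of the 8 libraries of the series, chosen by their titles. Each genotype has 1 BCSP library of round 1 and 1 of round 2, so each side holds 2 libraries. All came from femurs of mice 3 to 5 days old, and the progenitors were obtained by fluorescence-activated cell sorting. The other 4 libraries are of skeletal stem cells (SSC) from the same genotypes and rounds. All 8 samples, wild type included, carry the strain name B6;129S4-Tet1tm1.1Jae/J, and neither a treatment nor the sex of the pups is given in the sources used here. Total RNA was sequenced in paired reads of 150 bases. The labels do not say whether round 1 and round 2 are separate animals or pools, nor how many pups went into a library, so p-values measure only the spread between these samples, which may be technical. Genotype names below are those of the labels.

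TET1 is an enzyme that oxidises 5-methylcytosine at CpG dinucleotides, a step towards the removal of DNA methylation, and it also binds chromatin regulators that act apart from that activity. In the mouse skeletal lineage, SSC give rise to BCSP, which go on to form bone, cartilage and stroma. BCSP are separated from SSC by endoglin (CD105, encoded by Eng), while blood, vascular and Thy1-bearing cells are left out of both populations in the usual sorting scheme.

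The 4 BCSP libraries carried Eng, which separates BCSP from SSC, and genes of cartilage, while other surface markers were uneven. Eng stood at 47.95 and 50.5 counts per 1000000 (CPM) in wild-type BCSP of rounds 1 and 2 and at 43.9 and 25.7 CPM in KO BCSP, against 2.53 to 3.89 CPM in the 4 SSC libraries. The KO library of round 2 had the lowest Eng of the 4, and all 4 were above every SSC library. Ptprc, the pan-leukocyte gene CD45, was at 0 to 0.311 CPM, Tek, an endothelial receptor, at 0 to 0.156 CPM and Thy1 at 0.375 to 0.899 CPM. Enpep, a surface protein gene, was at 2.1 and 1.11 CPM in wild-type BCSP and 3.55 and 2.73 CPM in KO BCSP. The SSC libraries held 1.13 to 1.23 CPM of it. Its BCSP genotypes did not overlap, with an adjusted p of 0.686 (edgeR quasi-likelihood test). Itgav, an integrin gene, was at 61.98 and 34.04 CPM in wild-type BCSP and 69.5 and 67.9 CPM in KO BCSP. In SSC it ran from 42.2 to 58.4 CPM. Sox9, the master regulator of chondrocyte fate, ranged from 1095 to 1206 CPM and Acan, which encodes the cartilage proteoglycan aggrecan, from 6795 to 7950 CPM. Total counts per BCSP library ran from 107729225 to 168004119, so that 1 CPM stands for more than 100 counts. The libraries of a group differed by far more than counting noise, with a chi-square per degree of freedom of 348 within wild-type and 199 within KO BCSP.

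Counts of the targeted gene overlapped between the genotypes. Tet1 (ENSMUSG00000047146.17, chr10:62804570-62908996, minus strand) stood at 21.6 and 10.98 CPM in the wild-type BCSP libraries of rounds 1 and 2, and at 10.8 and 11.96 CPM in the KO libraries. Its difference, KO minus wild type on the log2 CPM scale, was -1.0 in round 1 and 0.12 in round 2, and the wild-type library of round 1 was the highest. Tet1 has 15457 exonic bases, and after the adjustment for exon length described below the differences were -0.89 in round 1 and -0.57 in round 2. In SSC they were -1.10 and -0.74 without that adjustment. The fitted log2 fold change was -0.52 ± 0.33 (SE; edgeR quasi-likelihood test, adjusted p = 0.687, n = 2 per genotype), and -0.75 with exon-length offsets. The count covers all exons and the labels do not say which part the allele lacks, so it is no check of the deletion.

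Trf was the 1 gene of 22153 tested (0.00451%) that passed the adjusted threshold of 0.05 in KO against wild-type BCSP, and it fell. Trf encodes transferrin, the iron-carrying protein that cells take up through the transferrin receptor, and lies at chr9:103204001-103230444 on the minus strand in mm10. It stood at 25.7 and 41.1 CPM in wild-type BCSP of rounds 1 and 2 and at 3.97 and 3.03 CPM in KO BCSP, so the genotypes did not overlap. Over all tested genes, both KO libraries lay below both wild-type libraries in 16.4% and above both in 16.9%. Round 1 gave a difference of -2.69 and round 2 one of -3.75 on the log2 CPM scale. The fitted log2 fold change was -3.26 ± 0.30 (SE; edgeR quasi-likelihood test, Benjamini-Hochberg adjusted p = 0.0016). At an unadjusted p under 0.05 there were 1370 genes (6.18%).

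Trf stood apart from the rest of its list, 25 tested genes of iron uptake, storage and export. Of these, 15 had a fitted value above 0 and 10 below, with a median log2 fold change of 0.04, beside 0.01 over all tested genes. Fth1, which encodes the heavy chain of the iron-storage protein ferritin, was at 345.9 and 654.9 CPM in wild type and 377 and 330.6 CPM in KO, so that the genotypes overlapped and the round 2 wild-type library alone was high. In the SSC libraries Trf differed by -2.62 in round 1 and -2.77 in round 2, and the test of BCSP minus SSC gave a log2 value of -0.55 ± 0.39 (SE; edgeR quasi-likelihood test, unadjusted p = 0.179).

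Nes, Tnxb and Lif, named beside Trf as markers of this comparison, were higher in KO in both rounds without passing the adjusted threshold. Each had an adjusted p of 0.686 (edgeR quasi-likelihood test). Nes encodes nestin, an intermediate filament protein of stem and perivascular stromal cells, and is at chr3:87971078-87980451. It stood at 12.2 and 8.39 CPM in the wild-type libraries and 25.6 and 33.9 CPM in KO, with differences of 1.06 in round 1 and 2.01 in round 2. Tnxb encodes tenascin-X, an extracellular matrix protein that organises collagen fibrils, and is at chr17:34670535-34719815. Its level was 5.05 and 4.57 CPM in wild type and 10.5 and 14.5 CPM in KO, with differences of 1.05 and 1.66. In neither gene did the genotypes overlap, and in both the KO library of round 2 was the highest of the 4.

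Lif encodes leukemia inhibitory factor, a cytokine of the IL-6 family that signals through LIFR and gp130, and lies at chr11:4257557-4272514. It was at 46.4 and 66.1 CPM in wild type and 125 and 169.5 CPM in KO, and the differences of 1.43 in round 1 and 1.36 in round 2 were close to each other. The genotypes did not overlap, and in each genotype the round 2 library was the higher. Fitted log2 fold changes were 1.53 ± 0.30 for Nes, 1.37 ± 0.31 for Tnxb and 1.39 ± 0.39 for Lif (SE). The plot of levels by library shows these genes beside Trf and Tet1.

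**Figure D1:**
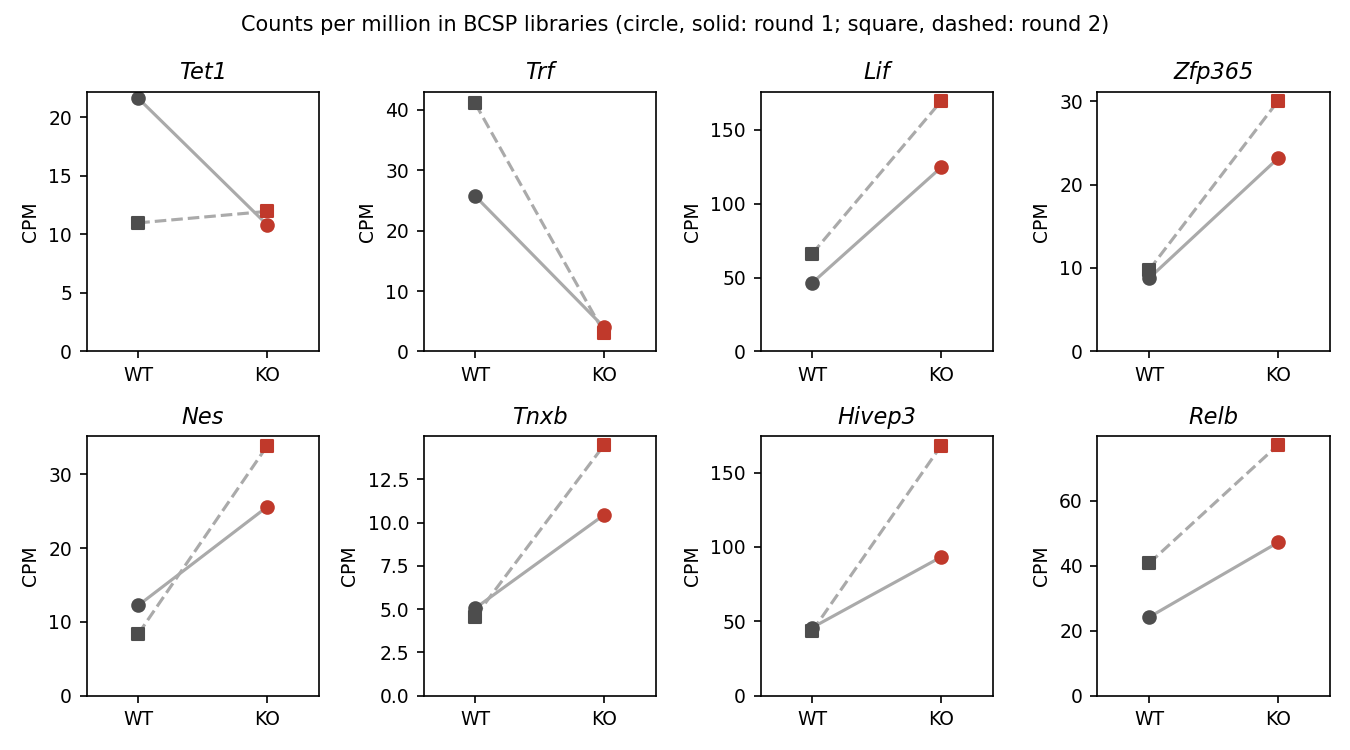
CPM of Tet1, Trf and other named genes in each of the 4 BCSP libraries, with 1 point per library and rounds marked apart. The Trf points of KO lie at 3.97 and 3.03 CPM, far below the wild-type points at 25.7 and 41.1 CPM, while Tet1 overlaps between genotypes.

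Because TET1 acts on CpG dinucleotides, the promoters of 4 genes higher in KO in both rounds are printed with each CpG in capitals, from 250 bases before the start of the gene to 50 after it (RefSeq, GRCm38.p6). Lif is at chr11:4257318-4257617 on the plus strand, Zfp365 at chr10:67912613-67912912 on the minus strand, Nes at chr3:87970843-87971142 on the plus strand and Tnxb at chr17:34670285-34670584 on the plus strand.
Lif: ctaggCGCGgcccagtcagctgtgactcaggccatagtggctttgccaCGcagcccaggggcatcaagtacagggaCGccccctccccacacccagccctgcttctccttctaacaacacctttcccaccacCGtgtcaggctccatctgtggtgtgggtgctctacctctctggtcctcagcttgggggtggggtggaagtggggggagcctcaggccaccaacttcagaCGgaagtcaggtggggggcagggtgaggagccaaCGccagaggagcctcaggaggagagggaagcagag
Zfp365: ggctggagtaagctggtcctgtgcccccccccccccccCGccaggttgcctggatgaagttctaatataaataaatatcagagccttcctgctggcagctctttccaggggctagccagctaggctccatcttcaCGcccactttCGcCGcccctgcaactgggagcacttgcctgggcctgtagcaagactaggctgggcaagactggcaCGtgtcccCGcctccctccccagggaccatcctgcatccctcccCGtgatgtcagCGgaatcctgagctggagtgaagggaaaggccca
Nes: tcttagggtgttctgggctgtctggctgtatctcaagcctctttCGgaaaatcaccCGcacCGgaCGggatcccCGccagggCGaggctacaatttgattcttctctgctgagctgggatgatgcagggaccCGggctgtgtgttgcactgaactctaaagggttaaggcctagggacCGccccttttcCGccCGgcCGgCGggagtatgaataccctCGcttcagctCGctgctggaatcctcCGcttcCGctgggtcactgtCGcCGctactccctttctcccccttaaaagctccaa
Tnxb: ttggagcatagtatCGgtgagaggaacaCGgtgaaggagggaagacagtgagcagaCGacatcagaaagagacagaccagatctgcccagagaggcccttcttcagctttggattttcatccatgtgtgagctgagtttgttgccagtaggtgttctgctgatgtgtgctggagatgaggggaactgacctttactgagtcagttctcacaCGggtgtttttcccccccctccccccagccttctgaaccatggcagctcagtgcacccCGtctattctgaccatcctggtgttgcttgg
The motif searched was CG, which reads the same on both strands. The Lif promoter holds 7 CpG, Zfp365 8, Nes 18 and Tnxb 5. Of 32851 promoters of the same length, 52.1% hold at least as many as Lif, 48.7% as Zfp365, 29.7% as Nes and 62.0% as Tnxb. Relative to its base composition, the observed to expected ratio of CpG was 0.702 for Nes and 0.231 to 0.289 for the other 3. Trf, the gene called, had no entry among these promoters, and no promoter of a gene lower in KO is printed. The files hold no methylation, so these counts describe the sequence alone.

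Across all expressed genes, the differences by round varied with the CpG content of the promoter mainly in round 2. Of the 12617 tested genes with a mean of at least 1 CPM over the BCSP libraries, 7714 matched a single RefSeq promoter. In the 274 genes with an observed to expected CpG ratio of at most 0.2, the median difference was 0.06 in round 1 and 0.11 in round 2. In the 3691 genes with a ratio over 0.8, it was -0.02 and -0.17. The lowest round 2 median, -0.27, was that of the 2259 genes with a ratio over 0.6 and up to 0.8, so the order of the classes was not monotonic. After the adjustment for exon length described below, the round 2 medians of these classes were 0.34, -0.03 and -0.07, from the fewest CpG to the most and then the 0.6 to 0.8 class. The class with the fewest CpG had 31.0% of its genes higher in both rounds and 20.1% lower, that with the most had 18.0% and 29.3%, and the class from 0.6 to 0.8 had 16.3% and 31.1%. Of all 12617 genes, 2648 were higher in both rounds and 3384 lower in both. The classes with the fewest and the most CpG also differ in level, with median CPM of 4.32 and 20.5. Their median exon lengths were 3580.5 and 4846 bases, and the shares were not adjusted for length. The part of level in the difference was not tested.

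Genes with a mean of at least 1 CPM and the same sign in both rounds were ranked by unadjusted p. Agreement in sign between the rounds was thus built into the choice. The first 10 higher in KO were Nes, Tnxb, Zfp365, Hivep3, Anpep, Elfn1, Per3, She, Cxcl12 and Ddx3y, a Y-linked gene given below. All had an adjusted p of 0.686 (edgeR quasi-likelihood test), and their genotypes do not overlap, as the choice by p favours. Zfp365, a zinc finger gene with a role in genome stability, was at 8.77 and 9.77 CPM in wild type and 23.2 and 30.0 CPM in KO. It lies 4.98 Mb from Tet1 on chromosome 10. Hivep3, which encodes the Schnurri-3 repressor of osteoblast activity, was at 45.8 and 43.4 CPM in wild type and 93.3 and 168.2 CPM in KO. Its round 2 difference of 1.96 came to 1.16 once the exon-length trend described below was removed, beside 1.03 in round 1.

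Cxcl12, a chemokine that marrow stroma uses to retain blood progenitors, stood at 7.06 and 6.89 CPM in wild type and 13.7 and 15.6 CPM in KO, with differences of 0.95 and 1.18. Anpep, the membrane aminopeptidase CD13, was at 3.61 and 2.86 CPM in wild type and 8.52 and 7.60 CPM in KO. Per3, a circadian clock gene, was at 25.1 and 12.03 CPM in wild type and 44.1 and 40.1 CPM in KO, with differences of 0.81 and 1.74 and the wild-type library of round 2 lowest. Elfn1 and She are both near or below 2.5 CPM throughout. Elfn1, which encodes a synaptic transmembrane protein, differed by 2.48 in each round in BCSP, from 0.254 and 0.418 CPM to 1.49 and 2.40 CPM, and by 0.20 and -0.29 in SSC. The test of BCSP minus SSC gave Elfn1 a log2 value of 2.63 ± 0.85 (SE; edgeR quasi-likelihood test, unadjusted p = 0.0085, adjusted p = 1.0). Elfn1 was chosen by its p in BCSP, which favours a larger value there. She, an SH2-domain adaptor gene, differed by 2.42 and 2.19 in BCSP.

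On the lower side of the same ranking, the genes after Trf were Ulbp1, Rlbp1, Pstpip2, Cd59a, H2-DMb1, Myo15, Gpr37l1, H2-Ab1 and Pygl. Each again had an adjusted p of 0.686 (edgeR quasi-likelihood test), and the same sign in both rounds was again part of the choice. Ulbp1, which encodes a ligand of the NKG2D receptor of natural killer cells, stood at 1.99 and 2.34 CPM in wild type and 0.120 and 0.304 CPM in KO. Its differences, -3.89 and -2.88, were of the size of those of Trf at a much lower level. Pygl, the liver-type glycogen phosphorylase, was at 61.1 and 111 CPM in wild type and 32.9 and 38.0 CPM in KO. It was the most abundant of the 9, and its genotypes did not overlap, as the choice by p favours.

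H2-Ab1 and H2-DMb1 belong to the MHC class II antigen presentation pathway, as beta chains of the presenting molecule and of its peptide-loading partner. H2-Ab1 was at 8.89 and 17.97 CPM in wild type and 4.40 and 5.44 CPM in KO. H2-DMb1 was at 16.3 and 28.9 CPM in wild type and 8.33 and 8.54 CPM in KO. Both were highest in the wild-type library of round 2, and their differences, -1.01 and -1.72 for H2-Ab1 and -0.97 and -1.76 for H2-DMb1, were larger in that round. In that library Ptprc was at 0 CPM, and summed myeloid and osteoclast markers, at 31.4 CPM, were the highest of the 4. The part of such cells in these values was not tested. Cd59a encodes an inhibitor of the complement membrane attack complex, with differences of -1.63 and -2.64. Pstpip2 encodes an adaptor that restrains innate inflammation of bone, and its differences were -2.06 and -1.30. Rlbp1, a retinaldehyde-binding protein gene, differed by -0.77 and -1.88, Gpr37l1, a glial receptor gene, by -0.74 and -1.90, and Myo15, an unconventional myosin gene, by -1.44 and -1.37.

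The rounds were next compared gene by gene. In 12617 genes of at least 1 CPM, the KO minus wild-type difference had a standard deviation of 0.420 in round 1 and 0.811 in round 2 on the log2 CPM scale. Of these genes, 2648 were higher in both rounds and 3384 lower in both, while 3693 were higher in round 1 and lower in round 2 and 2890 the reverse. The sign was thus the same in 47.8%. Spearman's rho between the rounds was -0.0259 and Pearson's r was 0.0217 across genes, which share libraries and are not independent. The rounds share no library, but the spread of the genes is wider in round 2.

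**Figure D2:**
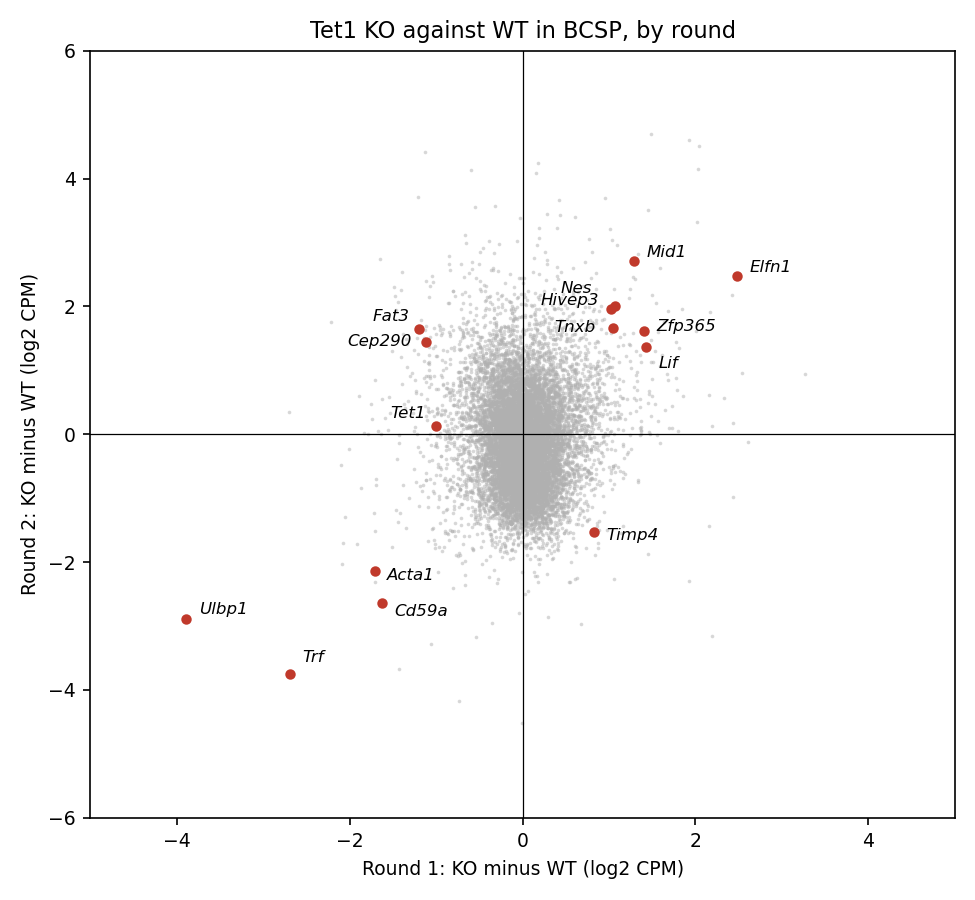
KO minus wild-type difference of each gene (log2 CPM) in round 1 on the horizontal axis and in round 2 on the vertical axis, for the tested genes of at least 1 CPM, with 4 genes outside the axes. The cloud has no slope (Spearman's rho -0.0259) and is wider in the round 2 direction, and Trf lies at -2.69 and -3.75, near Ulbp1 at -3.89 and -2.88.

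Differences beyond 1 on the log2 scale were found for 334 genes in round 1 and 2565 in round 2. In both rounds 61 genes passed it upwards and 28 downwards, 7 went from above 1 to below -1, and 45 the other way. Among these, 6 of each direction are named by size of the smaller of the 2 differences at a mean of at least 5 CPM, which again brought up Lif, Zfp365, Trf and H2-Ab1. Mid1, a microtubule-bound ubiquitin ligase gene, stood at 2.43 and 2.85 CPM in wild type and 5.95 and 18.8 CPM in KO. Its exons overlap those of 3 genes on the other strand, 1 of which met the same rule, and the strand of counting is not stated, so its reads cannot be assigned with certainty. Hif3a, a hypoxia-inducible factor gene, was at 3.09 and 5.76 CPM in wild type and 7.51 and 17.2 CPM in KO. S100a9, a neutrophil calprotectin gene that met the same rule, is given with the markers of other cells.

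Lower in both rounds were Acta1, Il17b, Plekhb1 and Lyn. Acta1, the skeletal muscle actin gene, was at 4.87 and 15.1 CPM in wild type and 1.48 and 3.41 CPM in KO, with differences of -1.71 and -2.14. Il17b, a cytokine gene, was at 5.64 and 10.7 CPM in wild type and 2.10 and 4.54 CPM in KO. Its round 2 difference of -1.24 came to -0.35 after adjustment for exon length. Lyn, a Src-family kinase gene, was at 9.09 and 6.40 CPM in wild type and 4.42 and 2.31 CPM in KO, and Plekhb1, which encodes a pleckstrin-homology protein, differed by -1.05 and -1.49. In all 4 genes the KO libraries lay below both wild-type libraries, as the choice by size in both rounds favours. Over all tested genes that was so in 16.4%.

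Some genes went opposite ways between the rounds. Fat3, an atypical cadherin gene, was at 5.99 CPM in wild type and 2.59 CPM in KO of round 1, and at 3.49 and 10.96 CPM in round 2. Cep290, a ciliary transition-zone gene, Smc2, a condensin subunit gene, and Dzip3, a ubiquitin ligase gene, followed the same order, lower in KO by -1.11, -1.08 and -1.08 in round 1 and higher by 1.45, 1.13 and 1.36 in round 2. Mrpl14, a mitochondrial ribosomal protein gene, went from 0.87 in round 1 to -1.78 in round 2. Timp4, a metalloproteinase inhibitor gene, went from 0.82 to -1.53. In Mrpl14 and Timp4 the wild-type library of round 2 was the highest of the 4, at 12.9 and 14.7 CPM. After the adjustment for exon length described below, the round 2 differences were 0.70 for Fat3, 0.97 for Cep290 and 1.18 for Smc2. They were 1.07 for Dzip3, -0.89 for Mrpl14 and -1.53 for Timp4.

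The round 2 differences followed the summed exon length of the gene. Spearman's rho of the difference with exon length was -0.139 in round 1 and 0.491 in round 2, against 0.250 and 0.0609 for the SSC libraries of rounds 1 and 2. In 373 genes of up to 1000 exonic bases the median difference was 0.10 in round 1 and -0.87 in round 2. In 773 genes of over 12000 bases it was -0.10 and 0.71. Round 2 therefore ran from lower to higher in KO as length grew, and round 1 ran weakly the other way. The 2 round 2 libraries stood on opposite sides, with a rho of each gene's deviation with length of -0.498 in wild type and 0.357 in KO, against 0.142 and -0.0379 in round 1. Removing a smooth length trend from each library gave a Spearman's rho between rounds of 0.0619 and the same sign in 51.2% of genes.

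**Figure D3:**
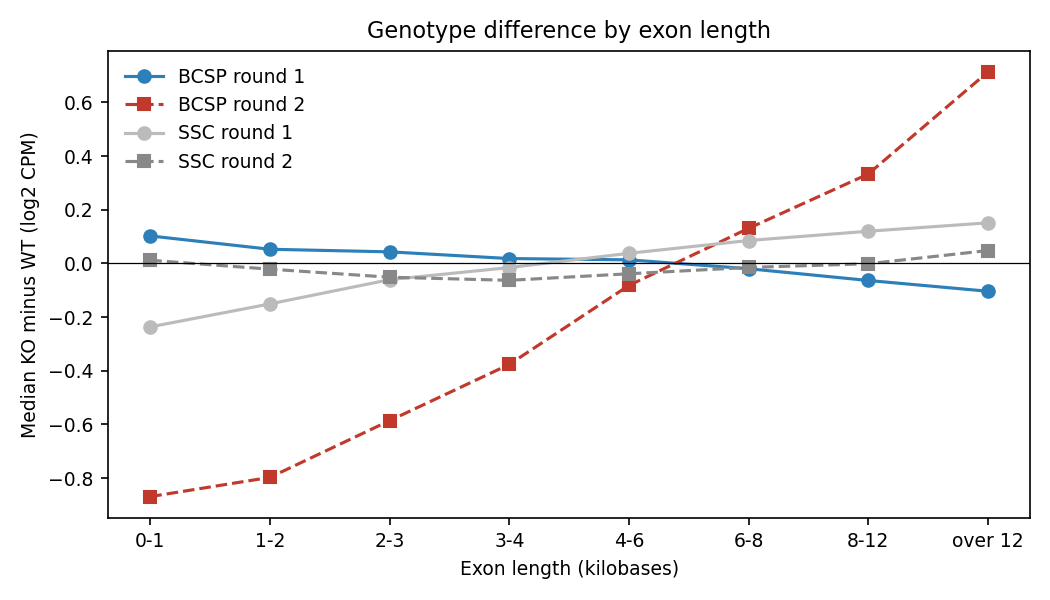
Median KO minus wild-type difference (log2 CPM) by class of summed exon length (bases), for rounds 1 and 2 of BCSP (coloured) and of SSC (grey). Round 2 of BCSP runs from -0.87 in the shortest class to 0.71 in the longest, and round 1 of BCSP from 0.10 to -0.10.

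Against this trend the leading genes differ in how much of round 2 is left. The length-adjusted round 2 difference was -3.36 for Trf, 1.95 for Nes, 1.14 for Tnxb, 1.55 for Lif and 1.69 for Zfp365. In the same libraries Dst, a cytoskeletal linker gene with 41155 exonic bases, went from 1.65 to 0.26. The round 2 libraries taken alone, with the spread borrowed from the SSC groups and the lone libraries assumed to vary like them, gave 1 call, Trf (edgeR quasi-likelihood test, adjusted p = 0.00778). The round 1 libraries taken alone in that way gave 0, and Trf had an adjusted p of 0.182 (edgeR quasi-likelihood test). The part of the length trend in the other round 2 differences was not tested beyond these adjusted values.

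Genes of other pathways were then counted by list, 30 lists in all. Over all 22153 tested genes, 23.9% were higher in both rounds and 22.2% lower in both, and the median difference was 0.00 in round 1 and 0.01 in round 2. Among the 12617 genes of at least 1 CPM the medians were 0.00 and -0.13. In the model without a round term, no listed gene apart from Trf passed the adjusted threshold. The list values below are therefore fitted values and counts of direction. Members named singly below were mostly those of smallest p in their list, which favours genotypes that do not overlap. Both KO libraries lay above both wild-type libraries in 16.9% of all tested genes and below both in 16.4%.

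Inflammatory and NF-kB target genes had the highest median of the pathway lists. Of 25 tested, 23 had a fitted value above 0, 17 were higher in both rounds and 1 lower in both. The median difference was 0.87 in round 1 and 0.67 in round 2, and 0.83 in round 2 after length adjustment. Relb, an NF-kB subunit gene of the non-canonical pathway, was at 24.2 and 40.7 CPM in wild type and 47.1 and 77.2 CPM in KO. Icam1, a leukocyte adhesion gene, was at 52.4 and 96.5 CPM in wild type and 113.5 and 175.8 CPM in KO. Csf1, the cytokine that drives macrophage and osteoclast formation, was at 33.8 and 49.0 CPM in wild type and 63.9 and 85.7 CPM in KO. These 3 did not overlap between genotypes, and in each genotype the round 2 library was the higher. Nos2, the inducible nitric oxide synthase gene, was at 2.90 and 1.05 CPM in wild type and 5.04 and 5.79 CPM in KO. Summed neutrophil markers, some of which an inflammatory response also induces, are given below, and their part in these values was not tested.

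The IL-6 family, to which Lif belongs, held 24 tested genes, of which 12 were higher in both rounds and 4 lower in both. Clcf1, a ligand of that family, was at 14.7 and 8.47 CPM in wild type and 26.3 and 22.9 CPM in KO, with differences of 0.84 and 1.43. Lifr, the receptor of LIF, differed by 0.20 in round 1 and 1.21 in round 2, and by 0.79 in round 2 after length adjustment. The list's median was 0.17 in round 1 and 0.36 in round 2. The genotypes of Clcf1 did not overlap.

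Of 25 TGF-beta pathway genes, 15 were higher in both rounds and 3 lower in both, with medians of 0.24 and 0.44. Ltbp2, a latent TGF-beta binding protein gene, was at 12.5 and 22.3 CPM in wild type and 34.6 and 35.6 CPM in KO. Tgfbi, a matrix protein gene that TGF-beta induces, ran the other way, from 438.5 and 807 CPM in wild type to 318.5 and 385.8 CPM in KO. The transcriptional corepressor gene Tgif1 differed by 0.57 and 0.61 and the receptor gene Acvrl1 by 0.77 and 0.65. Of 22 Notch genes, 11 were higher in both rounds and 5 lower in both, with Notch3, a receptor, at 0.79 and 1.03 and Heyl, a target, at 0.76 and 0.65. Among 25 matrix proteases and inhibitors, 12 were higher in both rounds and 1 lower in both. Plau, the urokinase gene, differed by 0.98 and 0.57 and Timp3, a protease inhibitor gene, by 0.36 and 1.22.

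Cartilage matrix genes gave no common direction. Of 25, 3 were higher in both rounds and 6 lower in both, with medians of 0.13 in round 1 and -0.31 in round 2. Prg4, which encodes the joint lubricant lubricin, was at 530.8 and 533.6 CPM in wild type and 891 and 988 CPM in KO, and Epyc, which encodes the proteoglycan epiphycan, was at 328.7 and 381 CPM in wild type and 194.9 and 221.9 CPM in KO. Both were separated by genotype in opposite directions. Epyc differed by -0.75 and -0.78, and by -0.22 in round 2 after length adjustment. Of 17 hypertrophic genes, 4 were higher in both rounds and 6 lower in both, and of 19 osteoblast genes 5 and 3. In 26 fibrous matrix genes the counts were 13 and 3, with medians of 0.25 and 0.12, and in 25 progenitor and stromal genes 10 and 5. In 20 filament and cytoskeleton genes, 8 were higher in both rounds and 2 lower in both. Myh9, a non-muscle myosin gene of that list, differed by 0.36 in round 1 and 1.21 in round 2.

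Cell cycle genes were mostly lower in KO in both rounds. Of 25 S-phase genes, 17 were lower in both rounds and 0 higher in both, with medians of -0.23 and -0.78, and -0.43 in round 2 after length adjustment. Of 25 genes of G2 and M phase, 15 were lower in both and 0 higher in both, with medians of -0.38 and -0.61. Mcm2 and Mcm3 encode subunits of the replicative helicase. Mcm3 was at 38.7 and 43.7 CPM in wild type and 32.3 and 23.3 CPM in KO, and Mcm2 at 37.0 and 40.7 CPM in wild type and 29.5 and 23.2 CPM in KO. Aurka, a mitotic kinase gene, was at 9.94 and 13.5 CPM in wild type and 5.88 and 7.03 CPM in KO. The genotypes of these 3 did not overlap. In bulk libraries, fewer cycling cells and less RNA per cell cannot be told apart.

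Oxidative phosphorylation and ribosomal protein genes split between the rounds. All 32 tested nuclear genes of oxidative phosphorylation were lower in KO in round 2, with a median of -1.16, while 18 of them were higher in round 1, with a median of 0.08. All 30 ribosomal protein genes were lower in round 2, with a median of -1.15, and 28 were higher in round 1, with a median of 0.22. The members are short, with median exon lengths of 2150.5 and 1752 bases, and after length adjustment the round 2 medians were -0.56 and -0.49. Rps14, a small-subunit protein gene, was at 698.8 and 1578 CPM in wild type and 749 CPM in KO of round 1, and its difference in round 2 was -1.55. The wild-type library of round 2 was the high one. Ndufs7 and Ndufa4, subunits of the respiratory chain, differed by -0.27 and -0.28 in round 1 and by -1.30 and -1.67 in round 2.

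Of 28 glycolysis and hypoxia gene entries, 14 were lower in both rounds and 5 higher in both, with medians of -0.01 and -0.93. Aldoc, an aldolase gene, was at 24.1 and 45.3 CPM in wild type and 17.98 and 16.3 CPM in KO. Slc16a3, a lactate exporter gene, differed by -0.03 and -1.45, and Epas1, which encodes hypoxia-inducible factor HIF-2 alpha, ran the other way at 0.58 and 1.38. Of 22 genes of protein folding in the endoplasmic reticulum, 15 were lower in both rounds and 0 higher in both, with Sdf2l1 at -0.78 and -1.59. Of 23 immediate-early genes, whose RNA rises quickly during tissue handling, 8 were higher in both and 6 lower in both, with Egr3 at 0.86 and 1.12. Among 19 TET, DNA methyltransferase and partner genes, 5 were higher in both rounds and 4 lower. Tet2 was at 53.3 and 25.2 CPM in wild type and 50.3 and 89.2 CPM in KO. Its difference was -0.08 in round 1 and 1.82 in round 2, and Tet3 differed by 0.35 and 0.86. After length adjustment the round 2 differences were 1.06 for Tet2 and 0.10 for Tet3.

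**Figure D4:**
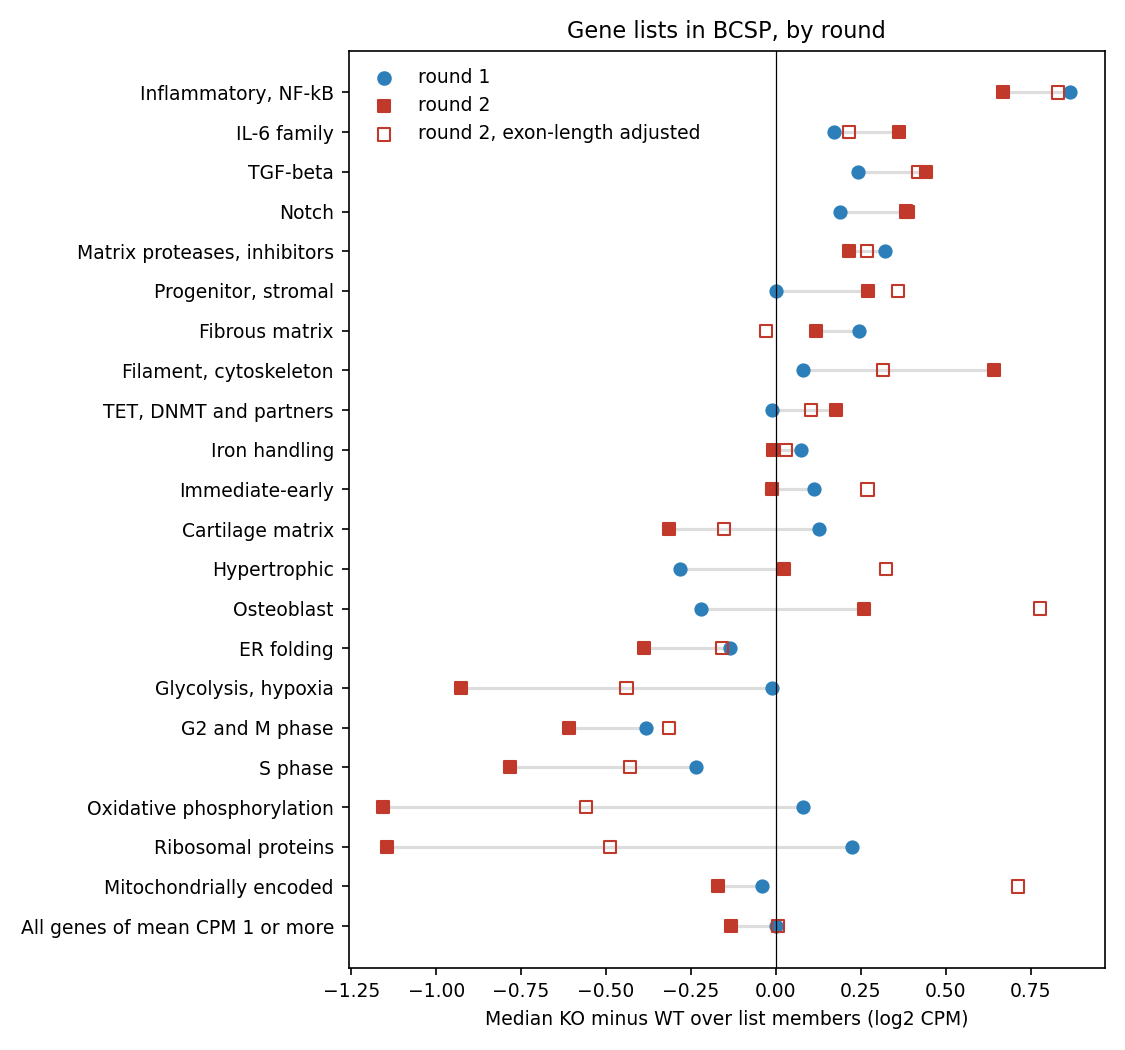
Median KO minus wild-type difference (log2 CPM) over the tested members of each pathway list in round 1, in round 2 and in round 2 after exon-length adjustment, with genes of at least 1 CPM in the last row. Inflammatory genes sit at 0.87 and 0.67, and oxidative phosphorylation and ribosomal protein genes are near 0 or above in round 1 and at -1.16 and -1.15 in round 2.

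Markers of other cell types were unequal among the libraries. All 13 neutrophil markers were detected and 9 of 13 were higher in both rounds, with summed levels of 21.4 and 5.78 CPM in wild type and 62.5 and 12.9 CPM in KO. S100a9 was at 5.85 and 0 CPM in wild type and 16.5 and 0.394 CPM in KO, so that round 1 held nearly all of it. Of 13 endothelial markers tested, 7 were higher in both rounds, and the sum of all 14 was 34.8 and 28.2 CPM in wild type and 47.2 and 44.6 CPM in KO. Erg, which cartilage also expresses, made up 22.5 to 41.0 CPM of those sums. Pericyte and smooth muscle markers, several of which stromal cells share, summed to 883 and 1041 CPM in wild type and 1038 and 1087 CPM in KO, and 8 of 12 were higher in both rounds.

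Lymphoid markers summed to 37.3 and 0.858 CPM in wild type and 10.7 and 0.812 CPM in KO, with Cd3d and Ms4a1 at 0 in all 4 libraries. Igkc, an immunoglobulin gene, alone made up 35.2 CPM of the wild-type and 9.51 CPM of the KO sum in round 1. Skeletal muscle markers summed to 34.6 and 45.9 CPM in wild type and 29.3 and 23.2 CPM in KO, with Pax7 and Tnnc2 at 0. Acta1, a member of that list, made up 4.87 and 15.1 CPM of the wild-type sums and 1.48 and 3.41 CPM of the KO sums. Of its 10 tested members, 3 were higher in both rounds and 3 lower in both. Myeloid and osteoclast markers were 26.6 and 31.4 against 30.5 and 25.7 CPM, erythroid markers 34.1 and 34.1 against 44.6 and 21.2 CPM, and Schwann cell markers 126 and 208 against 126 and 112 CPM, with overlap in each. S100b, which cartilage also expresses, made up 92.9 to 194.8 CPM of the Schwann sums. The part of these cells in the differences above was not tested.

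Sex-linked genes were also unequal between the genotypes. The Y-linked genes Ddx3y, Eif2s3y, Uty and Kdm5d were each higher in KO in both rounds. Ddx3y, an RNA helicase gene, was at 37.7 and 23.2 CPM in wild type and 62.1 and 92.2 CPM in KO, and differed by 0.72 in round 1 and 1.99 in round 2. Eif2s3y differed by 0.44 and 1.96, Uty by 0.38 and 1.41 and Kdm5d by 0.16 and 1.17. Xist, the X-inactivation RNA of female cells, was at 621 and 276.8 CPM in wild type and 230.7 and 275.2 CPM in KO. All 4 libraries thus held reads of both Xist and the Y-linked genes, in unequal amounts.

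The mean of the Y-linked genes, centred over the 8 fitted libraries, ran from -0.94 to -0.19 in wild type and from 0.07 to 0.69 in KO. It thus split by genotype without overlap, and a model that holds both can hardly separate them. With the mean of the Y-linked genes added to the model, the log2 fold change of Trf was -2.48 and 0 genes passed the adjusted threshold, Trf included (edgeR quasi-likelihood test, adjusted p = 1.0). The median fitted value of the inflammatory list went from 0.72 to 0.42 and kept its sign. Those of S-phase genes went from -0.46 to 0.19, of genes of G2 and M phase from -0.51 to 0.08, of oxidative phosphorylation from -0.50 to 0.60 and of ribosomal protein genes from -0.54 to 0.67, so that these 4 turned in sign. In all, 15 of 21 pathway lists turned, among them the IL-6 family (0.31 to -0.09), Notch (0.34 to -0.24), filament and cytoskeleton (0.35 to -0.06), glycolysis and hypoxia (-0.44 to 0.29) and protein folding (-0.25 to 0.06). TGF-beta genes went from 0.36 to 0.04. Of 8 lists of other cells, 3 turned, with endothelial markers going from 0.83 to -0.34. The Y-linked level was lowest in the wild-type library of round 2 and highest in the KO library of round 2, which also stood at the ends of the length trend, and these features cannot be told apart in 4 libraries.

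The difference between the KO effects in BCSP and SSC was tested over all 22153 genes, and 0 (0%) passed the adjusted threshold (edgeR quasi-likelihood test), with 282 at an unadjusted p under 0.05. Nes differed by 0.84 and 0.89 in SSC, Tnxb by 0.66 and 1.02, Lif by 0.76 and 0.97 and Zfp365 by 1.01 and 0.99. Each of these was smaller than the BCSP value of the same round. The genes stood out by p or by size in BCSP, and that choice favours smaller values in SSC. The tests of BCSP minus SSC gave log2 values of 0.66 ± 0.41 for Nes, 0.50 ± 0.43 for Tnxb, 0.48 ± 0.54 for Lif and 0.53 ± 0.45 for Zfp365 (SE), none past the threshold. Gpr37l1, named for its small p in BCSP, had a value of -1.03 ± 0.43 (SE; edgeR quasi-likelihood test, unadjusted p = 0.0312). It did not pass the adjusted threshold either.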

How the data were processed

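Bulk RNA sequencing of sorted BCSP and SSC was read from 1 table of counts per gene for 8 libraries, deposited by the authors, with whole numbers that were not normalized. The submitters' processing notes name STAR, featureCounts, DESeq2 and mm10 without versions, and the table's name points to htseq. The counting program, its strand setting and its annotation release are therefore unsettled. Reads of close paralogs and of antisense genes can therefore not be separated. Column names spelled BCP and SCC were read as BCSP and SSC, since 1 title fits each.

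The tests used edgeR 4.0.16 with limma 3.58.1 in R 4.3.3. Genes were filtered by filterByExpr (minimum count 10, minimum total 15), which left 22153 of 55471, and scaled by TMM. A robust quasi-likelihood model with 1 mean per group was fitted to all 8 libraries (residual degrees of freedom 4), and p-values were Benjamini-Hochberg adjusted over all tested genes, with a threshold of 0.05. All 4 groups enter the fit so that they share 1 estimate of the spread, and the common biological coefficient of variation was 0.525. CPM was computed from the counts and TMM-scaled library sizes, and differences by round are KO minus wild type in log2 CPM with a prior count of 2. Exon lengths and positions came from GENCODE M21, matched for 55230 genes. The length adjustment subtracts a lowess trend (span 0.3) of each library's deviation on log exon length, fitted over 12636 genes of at least 1 CPM. The edgeR fit and the length trend were tested on simulated counts with a smaller spread than in these data.

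Named genes are the 4 markers and Tet1, and the 10 of smallest p in each direction. Those 10 were taken from genes with a mean of at least 1 CPM and the same sign in both rounds. At 5 CPM or more, genes with the largest smaller difference of the rounds were added. These were up to 6 per direction and up to 4 with opposite signs. Up to 4 of smallest p per list were named too. Of all named genes only some are given in the text. Erg, Xist and the sort markers were named after their values were seen. The members and the lists were chosen with earlier results of these data known. Alternatives were other scaling, no filter, DESeq2 1.42.0, limma-voom, BCSP libraries alone, round as a replicate block, each round alone, each library left out, exon-length offsets and a Y-linked covariate.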

Additional observations from a re-analysis of the deposited data

How the results depend on the processing

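The call for Trf held in 14 of the 16 alternatives run, with log2 values of -3.55 to -2.88 when single libraries were left out. It was lost with the round 1 libraries only and with the Y-linked covariate, a mean that split by genotype in all 8 libraries. The number of genes called in BCSP (1) was 38 without a filter, 20 with DESeq2, 0 with the round 1 libraries only, 0 with the Y-linked covariate and 1 without any single library. DESeq2 calls were 7 higher and 13 lower in KO, and those without a filter 23 and 15. Both settings called Nes, Tnxb, Zfp365, Hivep3 and the Y-linked Ddx3y. On the lower side both called Ulbp1, Rlbp1, Cd59a, H2-DMb1, H2-Ab1, Gpr37l1 and Pygl, among others. The fit without a filter also called Lif (edgeR adjusted p = 0.00091) and the Y-linked Eif2s3y. The same-sign share of 46.1% over all tested genes was 47.5% with DESeq2 size factors, 33.8% without a filter, 49.8% with exon-length offsets, 47.8% at a mean CPM of at least 1 and 47.5% with a prior count of 0.5. With round as a replicate block, BCSP calls were 3 over 8 libraries and 16 over the BCSP libraries. With that block and exon-length offsets over all libraries they were 8. The 3 were Trf, Ighg2c and Gm15247. The 16 included Trf, Ulbp1, Acta1 and Mid1, and also Ighg2c, Bpifa1, Camp and S100a9. The 8 included Lif, Zfp365 and Hivep3 (edgeR adjusted p = 0.0187 each) and Relb and Icam1 (0.0306 each). Lif, Zfp365, Hivep3, Relb and Icam1 were not called in the blocked fits without offsets. Nes and Tnxb were called in no blocked fit. BCSP minus SSC calls (0) were 2 with the block, and 1 with the block and the offsets. Deviations of same-numbered libraries had r of 0.0590 between wild-type and KO BCSP. Between wild-type BCSP and SSC r was 0.272 for wild-type SSC and 0.162 for KO SSC. In the pairs of groups without wild-type BCSP it was 0.559 to 0.645. The low values thus all involved wild-type BCSP. The sign turned with the Y-linked covariate for Tet2 (-0.80), Fth1 (0.38), Myh9 (-0.035), Dst (-0.57), Lifr (-0.28) and Timp3 (-0.24). It also turned with that covariate for Mcm3 (0.091), Mcm2 (0.020), Ndufs7 (0.097), Ndufa4 (0.35), Rps14 (0.58) and Slc16a3 (0.46). Eif2s3y (-0.075) and Kdm5d (-0.38) turned too, but both are part of the mean used as covariate, so their turn was built in. In round 1 alone the sign turned for Tet2 (-0.081), Fth1 (0.13) and Rps14 (0.10), and in round 2 alone for Tet1 (0.12). Leave-one-out values ran from -0.92 to 0.054 for Tet1, from -2.89 to 13.1 for S100a9 and from -0.89 to 0.036 for Fth1, turning without the wild-type library of round 1, the KO library of round 1 and the wild-type library of round 2. The cause was not tested. Depth was ample for most genes, and 2 libraries per genotype limit the precision.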
